A study of Mus musculus with 39 samples.

Results

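Liver RNA of mice taken 24 hrs after a 10-day regimen of aggressor exposure was compared with liver RNA of control mice on the same schedule. By their labels, 9 of the 39 arrays of the series belong to this regimen and time, with 5 mice in the aggressor-exposed group (AggE) and 4 in the control group (Ctrl). All were male C57BL/6J mice, bought at 5 to 6 weeks of age and housed alone. Each AggE mouse spent 6 hrs a day for 10 days in a wire-mesh cage inside the home cage of an SJL aggressor, with up to 3 brief physical contacts per session. Ctrl mice went through the same cage-in-cage sessions and the same loss of food access, without an aggressor. All mice of both groups met an aggressor cue behind a partition 1 hr before tissue was taken, so a response to that cue is not separated from the response to the sessions. On every array the liver RNA of 1 mouse carried Cy-5, a common mouse reference RNA carried Cy-3, and the dyes were never swapped. The text gives log2 ratios of liver to reference after background correction and normalization, and a change is the AggE mean minus the Ctrl mean on that log2 scale.

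The liver answers injury and inflammation elsewhere in the body with the acute phase response, in which hepatocytes, driven mainly by IL-6, IL-1 and glucocorticoids, secrete large amounts of some plasma proteins. In mice the serum amyloid A proteins, the pentraxin Apcs, the orosomucoids and lipocalin 2 are among the strongest responders. The same liver sets the supply of fuel between meals through PPARα, a receptor for fatty acids that turns on genes of fatty acid oxidation, and through the synthesis of new fatty acids.

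Before any result, the arrays bear on how far it can be read. On each array 30.8% to 44.3% of the probes were well above background in Cy-5 in Ctrl (median 38.5%) and 32.1% to 44.1% in AggE (median 39.1%), a difference of 0.526 percentage points (exact permutation test, two-sided, p = 0.889). The ratios of any pair of the 9 arrays correlated with r between 0.94 and 0.982 across probes. The 4 Ctrl arrays lay on slide 1, AggE mice 1 to 4 on slide 2 and AggE mouse 5 on slide 3, so that slide and group cannot be told apart. Of the 18259 genes tested, 6324 were not well above background on any of the 9 arrays with the probe that stands for the gene, the one with the highest mean signal. Of the defining markers of hepatocytes, 7 of 7 tested were well above background on all arrays of a group.

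At 24 hrs post-10-day stressor, 31 genes differed between AggE and Ctrl by at least 2-fold with an unadjusted p of 0.05 or less in limma's moderated test. The 27 that were higher in AggE are 0.148% of the genes tested and the 4 that were lower are 0.0219%. With Benjamini-Hochberg adjustment over all probes, 16 genes (0.0876%) kept the call at 2-fold, 15 higher and 1 lower, and 18 genes (0.0986%) were called with no limit on the fold. The higher genes were led by acute phase genes and by the metallothioneins Mt1 and Mt2, and the only lower gene among the 16 was Csad, the enzyme that makes the precursor of taurine. In 29 of the 33 genes called by any of these rules, the 5 AggE values lay entirely on 1 side of the 4 Ctrl values. Across all genes this was so for 1.1% with AggE above Ctrl and for 0.766% with AggE below, but the 33 were chosen for their difference in these same values, so their count is a description. A random block for slide left 21 genes at 2-fold with an unadjusted p and 6 with an adjusted p (Saa1, Saa3, Lcn2, Apcs, Apoa4 and Ifi27l2b). The split at 2-fold and an unadjusted p depended on the scaling, with 16 higher and 33 lower without normalization between arrays, 285 higher and 174 lower with the processed signals, and 297 higher and 329 lower with the deposited log ratios, in which 18.93% to 31.35% of the spots of each of the 9 arrays are listed at exactly 0.

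**Figure D1:**
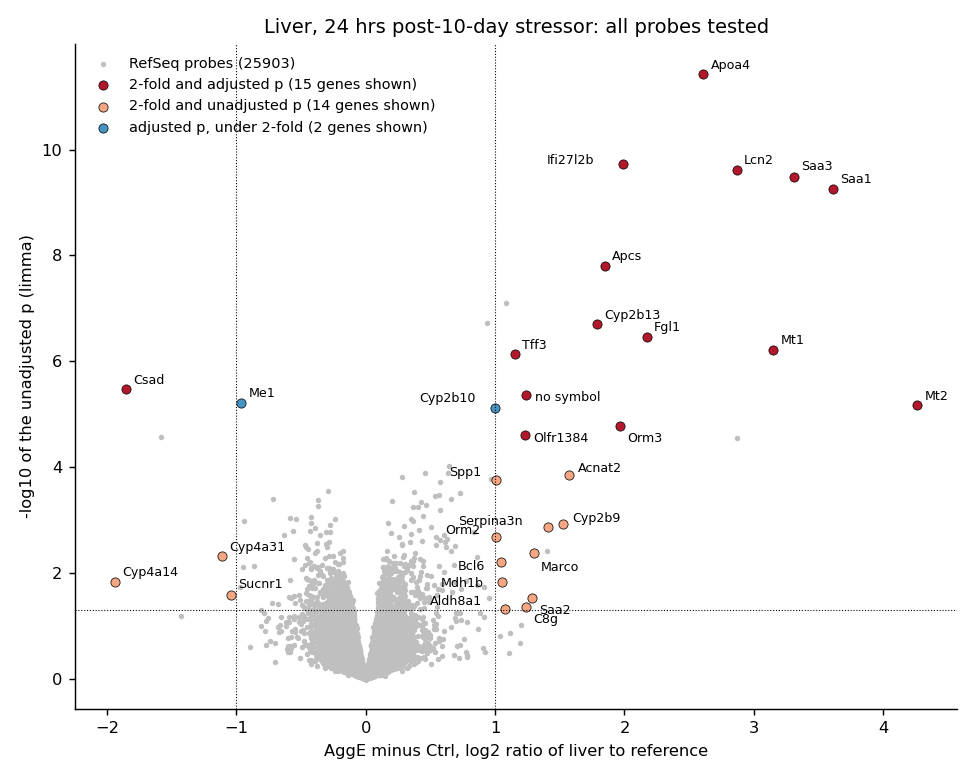
Change of every RefSeq probe at 24 hrs post-10-day stressor (horizontal axis, AggE minus Ctrl on the log2 scale) against its unadjusted p (vertical axis, -log10). The 31 called genes drawn are coloured by the rule that called them and lie mostly on the right, up to a change of 4.26 for Mt2, while Csad, Me1, Cyp4a14, Cyp4a31 and Sucnr1 lie on the left.

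The serum amyloid A genes showed some of the widest gaps between the groups. Saa1 and Saa2 encode acute phase apolipoproteins that replace others on circulating high density lipoprotein, and Saa3 a related protein that macrophages make as well as hepatocytes. For Saa1 the log2 ratios were 1.58, 1.32, 1.29 and 1.47 in the Ctrl mice and 5.49, 4.76, 4.85, 4.90 and 5.13 in the AggE mice. The AggE mice formed a tight group far above Ctrl, by 3.61 ± 0.42 (SE), a 12.2-fold difference (adjusted p = 2.88e-06). A second Saa1 probe gave 2.87 ± 0.59 (adjusted p = 0.0353). For Saa3 the ratios were -0.595, -1.004, -1.006 and -0.825 in Ctrl and 3.19, 2.22, 3.07, 2.70 and 1.09 in AggE. Mouse 5 stood lowest of the AggE mice and still above every Ctrl mouse, and the change of 3.31 ± 0.38 passed the adjusted test (adjusted p = 2.15e-06).

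Saa2 behaved differently, because its signal rose in the reference channel too. The background-subtracted Cy-5 signals of the Saa2 probe were 569, 258, 331 and 477.5 in Ctrl and 26660, 11080, 26520, 21620 and 10270 in AggE. The Cy-3 signals of the same spots, which should carry only the common reference RNA, were 129, 96, 116 and 170.5 in Ctrl and 7456, 3428, 7567, 5630 and 2170 in AggE. Both channels thus separated the groups without overlap, and the ratio, which divides one by the other, changed by only 1.28 ± 0.56 with an unadjusted p of 0.0297. From Cy-5 alone the Saa2 change was 5.69 ± 0.56 on the log2 scale (adjusted p = 2.19e-07), and from Cy-3 alone it was 4.25 ± 0.43 (adjusted p = 3.94e-07). Saa1 showed the same in part, with a Cy-3 change of 1.46 ± 0.28 (adjusted p = 0.0302) against 5.28 ± 0.51 in Cy-5, so its ratio is also smaller than its Cy-5 change. Its other called probe had a larger Cy-3 change, 3.14 (adjusted p = 5.89e-06), against 5.34 in Cy-5. At the first of these Saa1 probes AggE mouse 5 had the same background-subtracted Cy-3 signal as Ctrl mouse 3 (773). That was before normalization, and the median Cy-3 spot signal was 69 on the array of AggE mouse 5 and 89 on that of Ctrl mouse 3. In the whole table Saa1 and Saa2 were the 2 genes whose Cy-3 signal differed by 2-fold or more with an adjusted p of 0.05 or less. Mt2 had Cy-5 signals of 318 to 447 in Ctrl and 1479 to 25210 in AggE, while its Cy-3 change was -0.06 ± 0.06. No Cy-5 spot of the 33 genes was saturated (0 arrays), and the cause of the Cy-3 signal was not tested. Saa1 and Saa2 are near-identical paralogs, and how far 1 transcript binds the other's probe was not tested either.

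**Figure D2:**
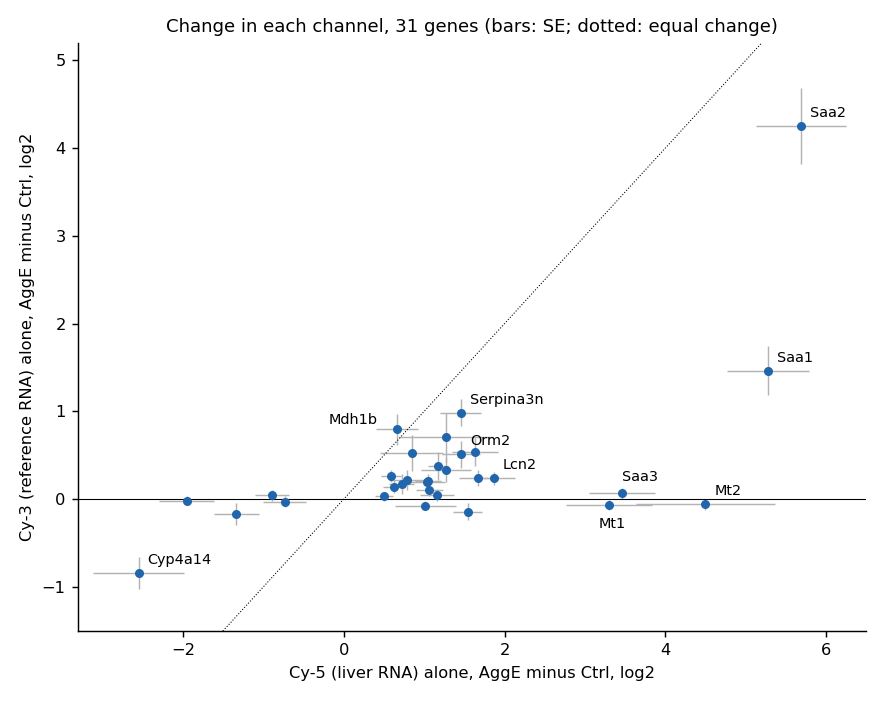
Change of each channel taken alone for 31 called genes, Cy-5 with the liver RNA on the horizontal axis and Cy-3 with the reference RNA on the vertical axis (log2, AggE minus Ctrl, bars are SE). Most genes lie near 0 in Cy-3, whereas Saa2 (4.25), Saa1 (1.46) and Serpina3n (0.98) rose there as well and Cyp4a14 (-0.85) was lower.

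The other acute phase genes that passed the adjusted test were Lcn2, Apcs and Orm3. Lcn2, which binds bacterial iron carriers, was not well above background in any of the 4 Ctrl mice and was so in all 5 AggE mice. Its ratios were -0.39, -0.31, -0.35 and -0.33 in Ctrl and 3.72, 1.75, 2.41, 2.80 and 1.94 in AggE (adjusted p = 2.06e-06). In the Cy-5 channel without normalization between arrays, the AggE mean was 5.28-fold the Ctrl mean. From Cy-5 alone with quantile normalization the change was smaller, 1.86 ± 0.26 on the log2 scale, so 5.28-fold is not a lower bound. The probe's own Ctrl signal lay above the detection floor, the lowest signal of any probe well above background, on all 4 Ctrl arrays (means of 6.99 and 6.33 on the log2 scale). Apcs, the main acute phase pentraxin of the mouse, had ratios of 1.48, 0.61, 0.67 and 1.05 in Ctrl and 2.71, 2.66, 3.06, 2.47 and 3.12 in AggE, a change of 1.85 ± 0.25 (adjusted p = 6.78e-05). The AggE values of Apcs spanned less than the Ctrl values, and the groups did not overlap. From Cy-5 alone the Apcs change was smaller, 1.05 ± 0.16 (limma's adjusted p = 0.000432). Orm3, an orosomucoid, changed by 1.97 ± 0.39 (adjusted p = 0.0237), from 2.06 ± 0.62 (SD, n = 4) to 4.03 ± 0.63 (SD, n = 5), but lost its adjusted call without Ctrl mouse 2, 3 or 4 or AggE mouse 1, 3 or 4 (adjusted p = 0.0684 to 0.326). In the deposited log ratios the Orm3 change was 0.764 and missed even the unadjusted limit (limma's unadjusted p = 0.335). Its paralog Orm2 changed by 1.01 ± 0.30 and the protease inhibitor Serpina3n by 1.41 ± 0.40, and neither passed the adjusted test (adjusted p = 0.754 and 0.591). Both directions turned with the processed signals, to -0.082 for Orm2 and -0.0839 for Serpina3n, and that of Orm2 also with the deposited log ratios (-0.0664). From Cy-5 alone both passed limma's adjusted test, with 1.46 ± 0.24 for Orm2 (adjusted p = 0.00129) and 1.46 ± 0.25 for Serpina3n (adjusted p = 0.00338). In the Cy-3 reference channel Orm2 differed by 0.51 ± 0.15 (adjusted p = 0.23) and Serpina3n by 0.98 ± 0.16 (adjusted p = 0.00236).

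The acute phase list as a whole was uneven. Of its 27 genes tested, 22 were higher in AggE and 5 lower, 9 were higher with an unadjusted p of 0.05 or less and 1 was lower, and the median change was 0.24, against a median of 0.00 over all genes, of which 1.63% were higher and 1.3% lower at that p. Over the alternatives the median of the list ran from 0.06 to 0.47. The lower one, A2m, was not well above background on any array and differed by -0.12. Fibrinogen chains and haemopexin, which respond to IL-6 in many settings, did not pass even the unadjusted test, with changes of 0.38 for Fga, -0.05 for Fgb, -0.09 for Fgg and 0.03 for Hpx. Hp, which encodes haptoglobin, had a change of -0.36 ± 0.25. The 11 carriers that fall in many acute phase responses, such as albumin and transthyretin, had a median of 0.03, and none passed the unadjusted test in either direction (0 of 11), although all AggE values lay above all Ctrl values for Alb (0.28 ± 0.36) and Ttr (0.74 ± 0.40). Among 17 genes of IL-6, IL-1 and gp130 signalling none passed it either (0 of 17).

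The metallothioneins Mt1 and Mt2, small proteins that bind zinc and copper and are induced by metals, glucocorticoids and cytokines, were among the largest changes. Mt2 ratios were -4.59, -3.77, -3.94 and -3.80 in Ctrl and 1.35, 1.00, 1.28, -0.34 and -2.11 in AggE. Mt1 ratios were -4.16, -3.86, -3.62 and -3.43 in Ctrl and 0.39, -0.16, -0.15, -0.79 and -2.38 in AggE. In each gene the Ctrl mice lay close together while the AggE mice were spread over more than 2 log2 units, and AggE mouse 5 was nearest to Ctrl. The changes were 4.26 ± 0.80 for Mt2 (adjusted p = 0.0109) and 3.15 ± 0.51 for Mt1 (adjusted p = 0.00142), 19.2-fold and 8.88-fold. Both adjusted calls ended under the slide block, where Mt2 changed by 3.88 and Mt1 by 2.86 (adjusted p = 1 for each), and that of Mt2 also without Ctrl mouse 1 or AggE mouse 1, 2 or 3 (adjusted p = 0.0533 to 0.0666). No other of the 14 genes of metallothioneins and zinc transport passed the unadjusted test, including the zinc importer Slc39a14 with a change of 0.04 and the metal sensor Mtf1 with 0.05.

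**Figure D3:**
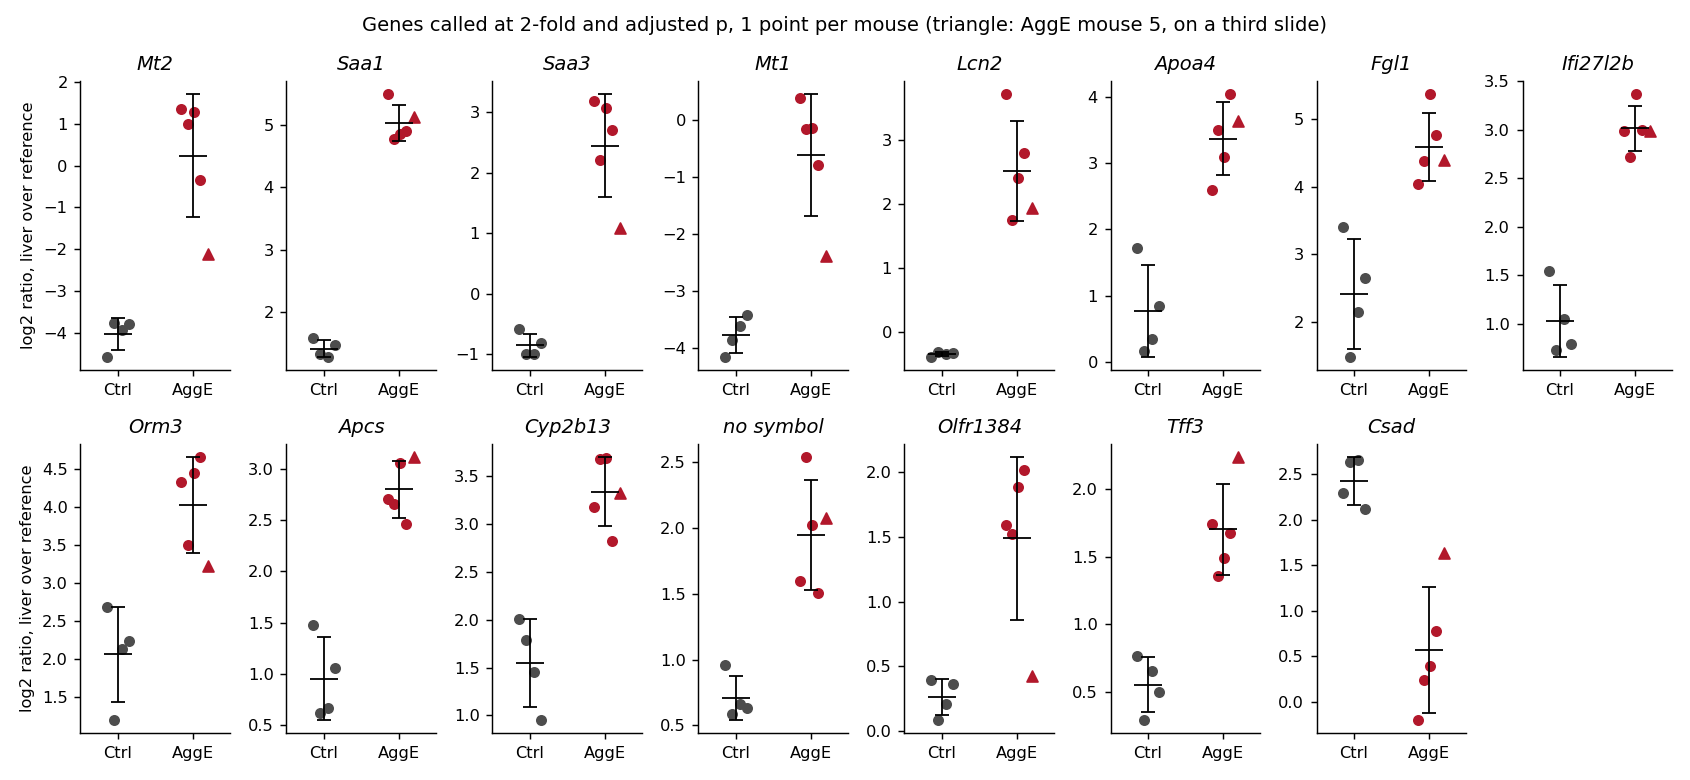
Log2 ratio of liver to reference in each mouse for 15 genes called at 2-fold and adjusted p (1 of them has no symbol), with the mean and SD of the 4 Ctrl and 5 AggE mice. Triangles mark AggE mouse 5, the only one of the 9 on its slide. It was nearest to Ctrl for Mt1, Mt2, Saa3, Csad, Orm3 and Olfr1384. It was farthest from Ctrl for Apcs and Tff3 and inside the AggE range for others, such as Apoa4 and Fgl1.

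Promoter sequence is shown for the serum amyloid A genes, Lcn2 and Mt2, the genes with some of the widest gaps, because letter patterns of inflammatory and metal-responsive factors are known from such promoters. Each run is the 250 bases before the transcript start in RefSeq (GRCm38.p6), 5′ to 3′ on the strand of the gene. In the first 4, capitals mark the NF-kB pattern (GGG and CC with 5 bases of any kind between them) and the C/EBP pattern TTGCNNAA on either strand, and in Mt2 they mark the metal response element TGCACNC or TGCGCNC. The Saa3 window held no NF-kB pattern (0), so its capitals mark the C/EBP pattern alone.
Saa1, chr7:46742981-46743230, minus strand: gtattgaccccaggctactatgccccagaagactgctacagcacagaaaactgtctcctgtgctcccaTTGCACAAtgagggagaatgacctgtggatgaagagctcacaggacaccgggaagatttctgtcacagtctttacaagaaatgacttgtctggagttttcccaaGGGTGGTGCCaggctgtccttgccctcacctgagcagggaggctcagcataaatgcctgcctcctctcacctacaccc
Saa2, chr7:46751583-46751832, plus strand: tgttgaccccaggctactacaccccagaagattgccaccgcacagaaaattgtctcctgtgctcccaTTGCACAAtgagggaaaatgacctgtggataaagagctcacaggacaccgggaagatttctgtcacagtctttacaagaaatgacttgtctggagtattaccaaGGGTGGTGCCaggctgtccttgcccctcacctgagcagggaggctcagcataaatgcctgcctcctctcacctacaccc
Saa3, chr7:46715677-46715926, minus strand: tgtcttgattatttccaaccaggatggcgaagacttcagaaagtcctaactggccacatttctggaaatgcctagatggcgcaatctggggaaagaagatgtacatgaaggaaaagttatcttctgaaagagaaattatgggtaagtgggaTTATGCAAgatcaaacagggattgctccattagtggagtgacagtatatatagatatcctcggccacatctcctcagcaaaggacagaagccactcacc
Lcn2, chr2:32387740-32387989, minus strand: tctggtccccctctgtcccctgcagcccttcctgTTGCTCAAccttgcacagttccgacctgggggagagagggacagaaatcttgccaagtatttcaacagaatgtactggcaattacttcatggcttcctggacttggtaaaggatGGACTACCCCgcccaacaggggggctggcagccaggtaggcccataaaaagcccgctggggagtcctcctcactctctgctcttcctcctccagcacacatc
Mt2, chr8:94172368-94172617, plus strand: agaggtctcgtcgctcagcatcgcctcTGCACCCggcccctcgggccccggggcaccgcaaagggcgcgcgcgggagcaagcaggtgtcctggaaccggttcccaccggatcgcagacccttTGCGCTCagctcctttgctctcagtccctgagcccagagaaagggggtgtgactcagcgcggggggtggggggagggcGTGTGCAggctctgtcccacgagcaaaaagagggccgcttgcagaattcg

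The Saa1 and Saa2 windows held the same patterns in the same order and matched at 197 of 249 bases without gaps, whereas Saa1 and Saa3 matched at 76 of 236. The Mt2 window held metal response elements at 3 places, as 0.77% of the 32851 promoters of that length in the table did at 3 or more. Of the 16 genes called at 2-fold and adjusted p, 11 had a promoter in the table. The C/EBP pattern was in 6 of the 11, against 9.56% of all promoters, the NF-kB pattern in 5 (45.8%), the metal response element in 3 (21.4%), the glucocorticoid receptor half-site TGTTCT in 2 (16.1%), the STAT pattern TTCNNNGAA in 1 (7.02%) and a PPAR direct repeat, half-sites AGGTCA or AGGNCA 1 base apart, in 0 (0.338%). A match describes letters in these windows and not a bound site.

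Apoa4, Fgl1, Ifi27l2b and Tff3 were higher in AggE. Apoa4, an apolipoprotein of chylomicrons and high density lipoprotein, had ratios of 1.72, 0.16, 0.34 and 0.85 in Ctrl and 2.60, 3.50, 3.10, 4.05 and 3.64 in AggE. Its change of 2.61 ± 0.25, 6.11-fold, had the smallest adjusted p of all genes (9.76e-08), although over the alternatives limma's adjusted p for Apoa4 reached 0.119. No other of the 21 genes of apolipoproteins and lipoprotein handling passed the unadjusted test, among them Apoa1 with a change of -0.17 and Apob with 0.06. Fgl1, a fibrinogen-like hepatokine, had ratios of 3.40, 1.48, 2.14 and 2.65 in Ctrl and 4.05, 4.38, 5.37, 4.77 and 4.39 in AggE, a change of 2.17 ± 0.34 (adjusted p = 0.000897). Ctrl mouse 1 lay closest to the AggE mice for both Apoa4 and Fgl1. Ifi27l2b, of a family named for induction by interferon alpha, changed by 1.99 ± 0.22 (adjusted p = 2.06e-06) from 1.03 ± 0.37 (SD, n = 4) to 3.01 ± 0.23 (SD, n = 5). Tff3, a trefoil peptide of mucosal epithelia, changed by 1.15 ± 0.19 (adjusted p = 0.00161). From Cy-5 alone the changes were smaller, 1.54 for Apoa4, 1.67 for Fgl1, 1.17 for Ifi27l2b and 0.59 for Tff3, and each passed limma's adjusted test. In the deposited log ratios the change of Ifi27l2b was 0.47 and limma's unadjusted p was 0.429, and Fgl1 and Tff3 also missed the unadjusted limit there (unadjusted p = 0.097 and 0.0894). None of the 29 genes of the interferon response and antigen presentation list, which does not include Ifi27l2b, passed the unadjusted test (0 of 29).

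Cyp2b13 and Cyp2b10, of the Cyp2b family of drug-metabolizing cytochromes P450, were higher in AggE. Cyp2b13 had ratios of 2.00, 1.79, 1.45 and 0.96 in Ctrl and 3.17, 3.68, 3.69, 2.82 and 3.33 in AggE, a change of 1.79 ± 0.28 (adjusted p = 0.000581). From Cy-5 alone the Cyp2b13 change was 1.07 ± 0.17 (limma's adjusted p = 0.00122). Cyp2b9 changed by 1.53 ± 0.43, with all AggE values (4.15 to 4.92) above all Ctrl values (2.71 to 3.17), and did not pass the adjusted test (adjusted p = 0.553). In the deposited log ratios Cyp2b9 differed by 0.28, and neither it nor Cyp2b13 passed limma's unadjusted test (unadjusted p = 0.786 and 0.279). Cyp2b10, the standard target of the xenobiotic receptor CAR, changed by 1.00 ± 0.19, just under 2-fold (1.999), and passed it (adjusted p = 0.0116), but not without Ctrl mouse 2 or 4 or AggE mouse 2 or 3 (adjusted p = 0.0531 to 0.136). These genes are close paralogs on chromosome 7, and cross-binding between their probes was not tested. A dimmer second probe of Cyp2b13 gave 0.37 ± 0.09 and one of Cyp2b9 gave 0.37 ± 0.10. Cyp2b13 and Cyp2b9 are more strongly expressed in female than in male liver, yet the 9 other female-biased genes tested had changes of -0.42 to 0.10 and none passed the unadjusted test, so the list's median was -0.08. Of the 19 CAR, PXR and AhR targets, Cyp2b10 alone passed it, while Cyp3a11 differed by -0.02 and Cyp2c29 by -0.16. A further transcript that could not be paired with a symbol, NM_009998, changed by 1.24 ± 0.23 (adjusted p = 0.00824), and lost its call without Ctrl mouse 2 or AggE mouse 2 (adjusted p = 0.0568 and 0.0533). From Cy-5 alone its change was 0.62, and in the deposited log ratios it missed the unadjusted limit (limma's unadjusted p = 0.139).

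Csad, cysteine sulfinic acid decarboxylase, was the fall with the smallest adjusted p. Its ratios were 2.29, 2.63, 2.66 and 2.12 in Ctrl and -0.20, 0.24, 0.40, 0.78 and 1.63 in AggE, a change of -1.85 ± 0.33 (3.61-fold lower, adjusted p = 0.0068), and the gene's second probe gave -1.58 ± 0.33 (adjusted p = 0.0346). The Ctrl values were close together and AggE mouse 5 came nearest to them, without overlap. Without Ctrl mouse 2 the adjusted p of Csad was 0.0506. In the list of 15 genes of sulfur amino acids and taurine, Gclc, a subunit of the rate-limiting enzyme of glutathione synthesis, had a change of -0.47 ± 0.22 with an unadjusted p of 0.0458. Cdo1, which makes the substrate of Csad, differed by -0.03.

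Genes of fatty acid use and synthesis were more often lower than higher in AggE, with 1 adjusted call. Me1, cytosolic malic enzyme, which supplies NADPH to fatty acid synthesis, had ratios of 1.16, 0.96, 1.01 and 0.93 in Ctrl and -0.26, -0.09, -0.13, 0.45 and 0.27 in AggE and fell by 0.96 ± 0.18 on the log2 scale (adjusted p = 0.0105), a call lost without Ctrl mouse 1 or AggE mouse 1, 2 or 3 (adjusted p = 0.0505 to 0.0652). Over all genes 49.1% were higher, and 1.3% were lower with an unadjusted p of 0.05 or less. Of the 18 fatty acid synthesis genes, 12 were lower and 6 higher with a median of -0.21, and Me1 was the only one with an unadjusted p of 0.05 or less. Fasn, fatty acid synthase, had a change of -0.60 and Elovl6 of -0.48, neither past it. Of the 29 PPARα targets 22 were lower and 7 higher, with a median of -0.17, and 4 were lower with an unadjusted p of 0.05 or less (Cyp4a14, Acot1, Acadm and Acot3, the last not well above background on any array). Cyp4a14, a fatty acid hydroxylase that follows PPARα closely, had ratios of 7.13, 7.60, 6.85 and 7.33 in Ctrl and 4.75, 6.11, 5.24, 5.42 and 4.93 in AggE. The groups were far apart, but the change of -1.94 ± 0.75 did not pass the adjusted test (adjusted p = 1), and in the deposited log ratios it was 0.01. Its paralog Cyp4a31 changed by -1.11 ± 0.37 and Cyp4a10 by -0.61 ± 0.36. Cpt1a, which admits fatty acids to mitochondria, had a change of 0.05. Acnat2, which conjugates fatty acyl-CoA with amino acids, was higher by 1.57 ± 0.37, from 1.29 to 2.76 in Ctrl to 3.25 to 3.92 in AggE (adjusted p = 0.15). In the deposited log ratios the Acnat2 change was 0.71 (limma's unadjusted p = 0.406).

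The subunits of oxidative phosphorylation showed small differences, mostly of 1 sign. Of 81 tested, 65 were lower in AggE and 16 higher, with a median of -0.12, beside 49.1% higher over all genes. With an unadjusted p of 0.05 or less, 11 were lower and 0 higher, beside 1.3% and 1.63% of all genes, including Atp5a1 with a change of -0.42 ± 0.12 and Ndufb10 with -0.63 ± 0.19, and 8 of the 81 had all AggE values below all Ctrl values, as 0.766% of all genes did. None passed the adjusted test (0 of 81). The 78 cytosolic ribosomal proteins had a median of -0.04 and the 34 proteasome subunits one of -0.05.

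**Figure D4:**
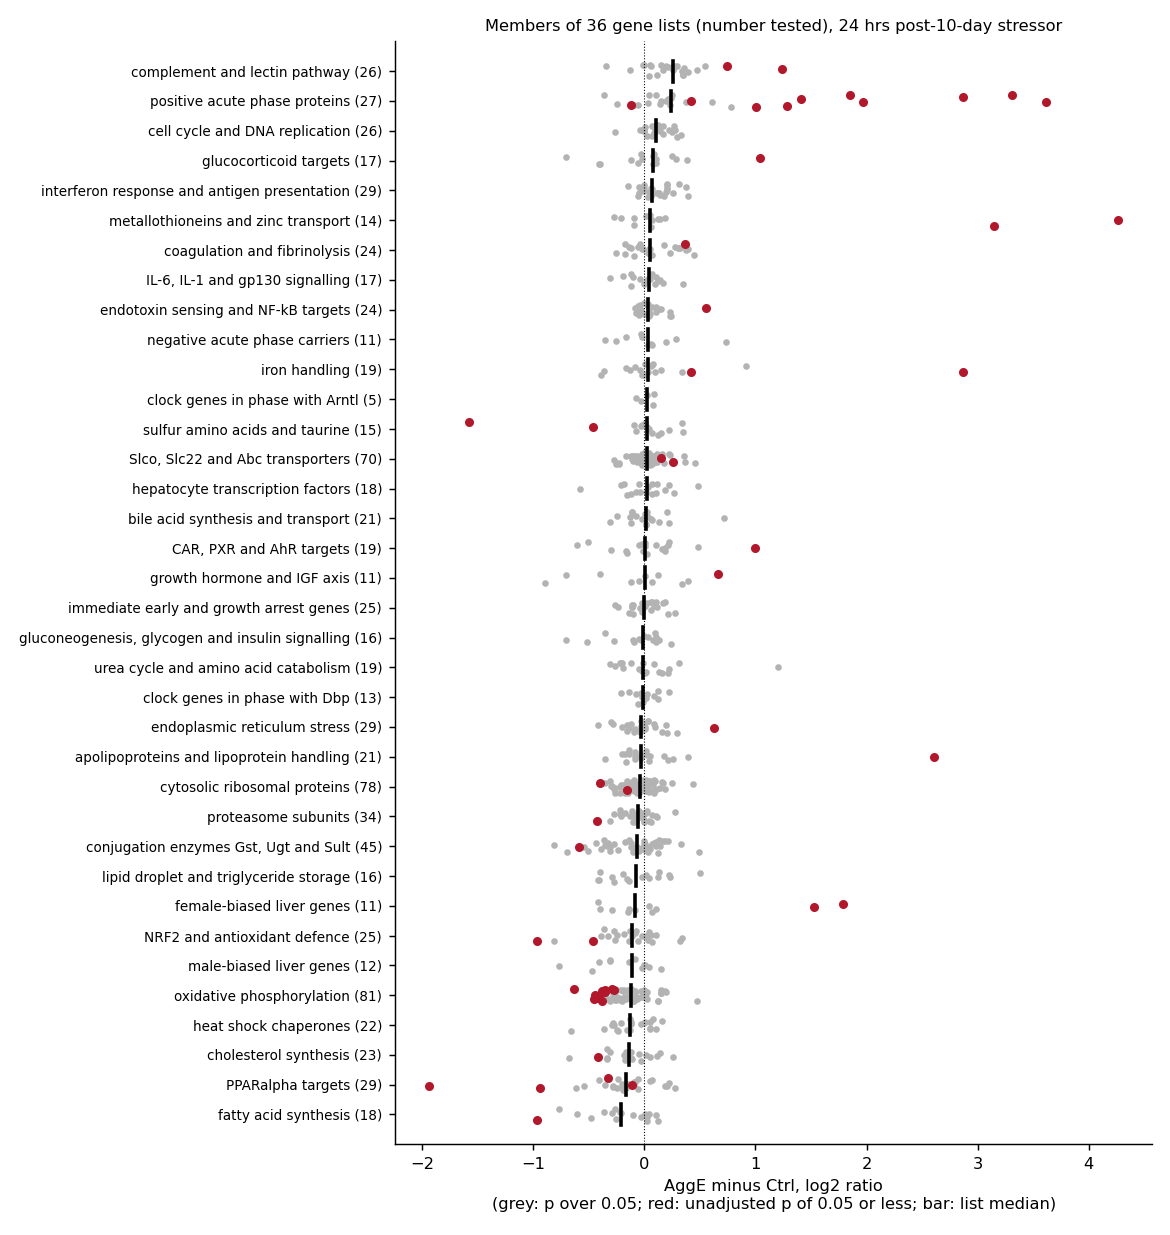
Change of the members drawn from 36 gene lists (horizontal axis, AggE minus Ctrl on the log2 scale, 1 point per gene by its probe with the highest signal), with red points for an unadjusted p of 0.05 or less and a bar at the list's median. Positive acute phase proteins have 9 red points on the right, oxidative phosphorylation 11 on the left, and the metallothionein list holds 2 points far from the rest.

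Of the 17 genes in the list of glucocorticoid targets, which holds the glucocorticoid receptor Nr3c1 (0.08 ± 0.11), Bcl6, a transcriptional repressor, differed by 1.04 ± 0.36 with an unadjusted p of 0.00637 and overlapping groups (adjusted p = 1). Fkbp5 and Tsc22d3, which respond to glucocorticoids in most tissues, had changes of -0.02 and -0.03, and Per1 of -0.05. No clock gene in phase with Arntl (0 of 5) or with Dbp (0 of 13) passed the unadjusted test, nor did any heat shock chaperone (0 of 22). Sucnr1, the receptor for succinate, had a change of -1.04 ± 0.45, with all 5 AggE values below all 4 Ctrl values and no call after adjustment (adjusted p = 1). Without normalization between arrays the Sucnr1 change was -1.94, and in the deposited log ratios it was -0.25 (limma's unadjusted p = 0.786).

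Markers of other cells were measured beside these changes. In whole liver, fewer cells of a type and less RNA per cell cannot be told apart. All 9 Kupffer cell markers tested were higher in AggE with a median of 0.35 (0.12 to 0.49 over the alternatives), and 4 had an unadjusted p of 0.05 or less, beside 49.1% and 1.63% of all genes. Marco, a scavenger receptor of macrophages, changed by 1.30 ± 0.42, Csf1r by 0.35 ± 0.11, Vsig4 by 0.36 ± 0.17 and Lyz2 by 0.34 ± 0.16, and none passed the adjusted test (adjusted p = 1 for Marco). Their summed Cy-5 signal was 4372 to 6909 in Ctrl and 5278 to 8193 in AggE, with overlap. Of 12 neutrophil markers 11 were not well above background on any array, S100a9 being the exception with a change of 0.46, and their summed signal was 1185 to 1286 in Ctrl and 1202 to 1288 in AggE. Of 13 leukocyte markers none passed the unadjusted test (0 of 13). Spp1, which marks bile duct cells and is also made by other liver cells, was higher by 1.01 ± 0.24 (adjusted p = 0.162), whereas Krt19 and Sox9 differed by 0.09 and 0.03 and the other bile duct markers, Krt7, Epcam and Cftr, were not well above background on any array. Among 13 stellate cell and fibroblast markers, Col3a1 with 0.30 ± 0.12 and Timp1 with 0.36 ± 0.15 had an unadjusted p of 0.05 or less. All 9 skeletal muscle markers were higher with a median of 0.56, none past the unadjusted test, and the summed signal was 1494 to 6420 in Ctrl and 1467 to 7395 in AggE, with overlap. All 5 erythroid markers were higher with a median of 0.23, and the summed signal was 11790 to 15250 in Ctrl and 13970 to 38260 in AggE, with overlap. Of these, Slc4a1 had a change of 0.35 ± 0.10 with an unadjusted p under 0.05 and no overlap, although its probe was well above background in 0 of 4 Ctrl mice and 4 of 5 AggE mice, and the sign of the median turned in 2 of 24 alternatives. Of 7 adipose markers 4 were higher and 3 lower, with a median of 0.01. Fabp4 differed by 0.91 ± 0.37 with an unadjusted p of 0.0182 and Cfd by -0.35 ± 0.44, while Lep and Plin1 were not well above background on any array. The summed signal of the adipose markers was 48690 to 80150 in Ctrl and 39640 to 66400 in AggE, with overlap. The part of these markers in the results above was not tested.

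Complement genes had the highest median of the 36 gene lists, 0.26, with 22 of 26 higher in AggE, beside 49.1% of all genes. With an unadjusted p of 0.05 or less 2 were higher, C4b and C8g (7.69%, beside 1.63% of all genes). With no normalization between arrays or Aquantile, 2 settings that share 1 set of ratios, the sign of that median turned to -0.30. C4b was higher by 0.74 ± 0.30 with an unadjusted p of 0.02 and no overlap. The call of C8g rests on 1 Ctrl spot without signal. Its ratios were 5.16, 5.61, 0.12 and 5.08 in Ctrl, and the spot of Ctrl mouse 3 had background-subtracted signals of 4 in Cy-5 and -3 in Cy-3. Without that mouse the C8g change was -0.05. Aldh8a1, an aldehyde dehydrogenase, had the same pattern with a ratio of -0.13 in Ctrl mouse 3 against 3.58 to 4.27 in the other Ctrl mice, and its change went from 1.08 to 0.07 without that mouse.

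Some calls separated the slides as closely as the groups. For Olfr1384, an olfactory receptor gene, the ratios were 0.39, 0.09, 0.21 and 0.36 in Ctrl, 1.59, 1.53, 1.89 and 2.02 in AggE mice 1 to 4, and 0.42 in AggE mouse 5, and leaving out any array but that of AggE mouse 5 ended the adjusted call (adjusted p = 0.0661 to 0.233). For Mdh1b, a relative of malate dehydrogenase, they were 0.13 to 0.28 in Ctrl, 2.28, 1.27, 1.12 and 1.30 in AggE mice 1 to 4 and 0.32 in mouse 5. Before normalization, the background-subtracted Cy-3 signal of the Mdh1b spot was 30.5 to 47.5 in Ctrl, 161 to 221 in AggE mice 1 to 4 and 20 in mouse 5. A second, dim probe of Mdh1b showed a change of -0.02. Over all 33 called genes, AggE mouse 5 was the least changed of the 5 AggE mice in 11.

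The 33 genes were then followed in other groups. After the 5-day regimen and 24 hrs of rest, in 4 Ctrl and 5 AggE mice that are not shared with the 10-day groups, 31 of the 33 had a change of the same sign and 22 were called at 2-fold and an unadjusted p, as were 0.296% of all genes. Those Ctrl arrays lay on slide 4 and the AggE arrays on slides 5 and 6, so slide and group cannot be told apart there either. On them 25.27% to 30.98% of the probes were well above background in Ctrl and 15.69% to 28.18% in AggE. Saa3 changed there by 4.16, Mt2 by 4.35, Lcn2 by 3.44 and Csad by -1.66. The difference between the 2 regimens was tested for every gene, and none of the 33 passed limma's adjusted test, while 4 had an unadjusted p under the limit (9.62% of all genes), among them Olfr1384, Bcl6 and the transcript without a symbol. For Saa3 the post-10-day change minus the post-5-day change was -0.85 ± 0.53, for Cyp2b13 it was 0.72 ± 0.39 and for Apoa4 0.64 ± 0.35. Across all genes 7 (0.0383%) had different changes after the 2 regimens by an adjusted p, among them Hic2, Mob3a, Rspo3, Samd7, Sntg1 and Slfn5. Of these, Rspo3, Samd7 and Sntg1 were not well above background on any of the 9 arrays and Slfn5 on only 1, and no gene passed when only probes well above background were tested (0). In the 10-day regimen the differences of the named genes ran from -0.09 for Sntg1 to 0.01 for Hic2, and no gene passed with the slide block, with the replicate block, or without Ctrl mouse 3, Ctrl mouse 4 or AggE mouse 3 (0 in each). The count was 1 to 3 without Ctrl mouse 1 or 2 or AggE mouse 1 or 4, and 11 without AggE mouse 5.

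At 4 wks post-10-day stressor, in 6 Ctrl and 6 AggE mice, 15 of the 33 genes had the same sign as at 24 hrs and 1, Serpina3n, was called at 2-fold and an unadjusted p (0.285% of all genes), with a change of 1.32. Those Ctrl arrays lay on slides 8 and 9 and the AggE arrays on slides 9, 10 and 11, so only slide 9 held both groups. On them 46.07% to 70.4% of the probes were well above background in Ctrl and 41.95% to 57.01% in AggE. The changes at the later time were -0.22 for Saa1, -0.05 for Saa3, -0.12 for Lcn2, -0.34 for Mt1 and -1.24 for Mt2, none of which passed the adjusted test. The 24-hr change less that at 4 wks passed the adjusted test in 9 of the 33, with 5.51 ± 1.06 for Mt2, 3.83 ± 0.56 for Saa1, 3.49 ± 0.68 for Mt1, 3.36 ± 0.50 for Saa3 and 2.98 ± 0.43 for Lcn2, and 28 of the 33 had an unadjusted p under the limit (12% of all genes). The 33 were chosen for their 24-hr changes, which enter this difference, so these counts are a description. Over all genes it did in 14 (0.0767%). Among the 5 outside the 33 were Acot1, with a change of -0.94 at 24 hrs and 0.84 at 4 wks, and Hadha of mitochondrial fatty acid oxidation, with -0.09 and 0.81. With the slide block no gene passed for this difference (0), and the count was 6 without Ctrl mouse 2 or AggE mouse 3 and 8 or 9 without Ctrl mouse 1, Ctrl mouse 3 or AggE mouse 1.

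**Figure D5:**
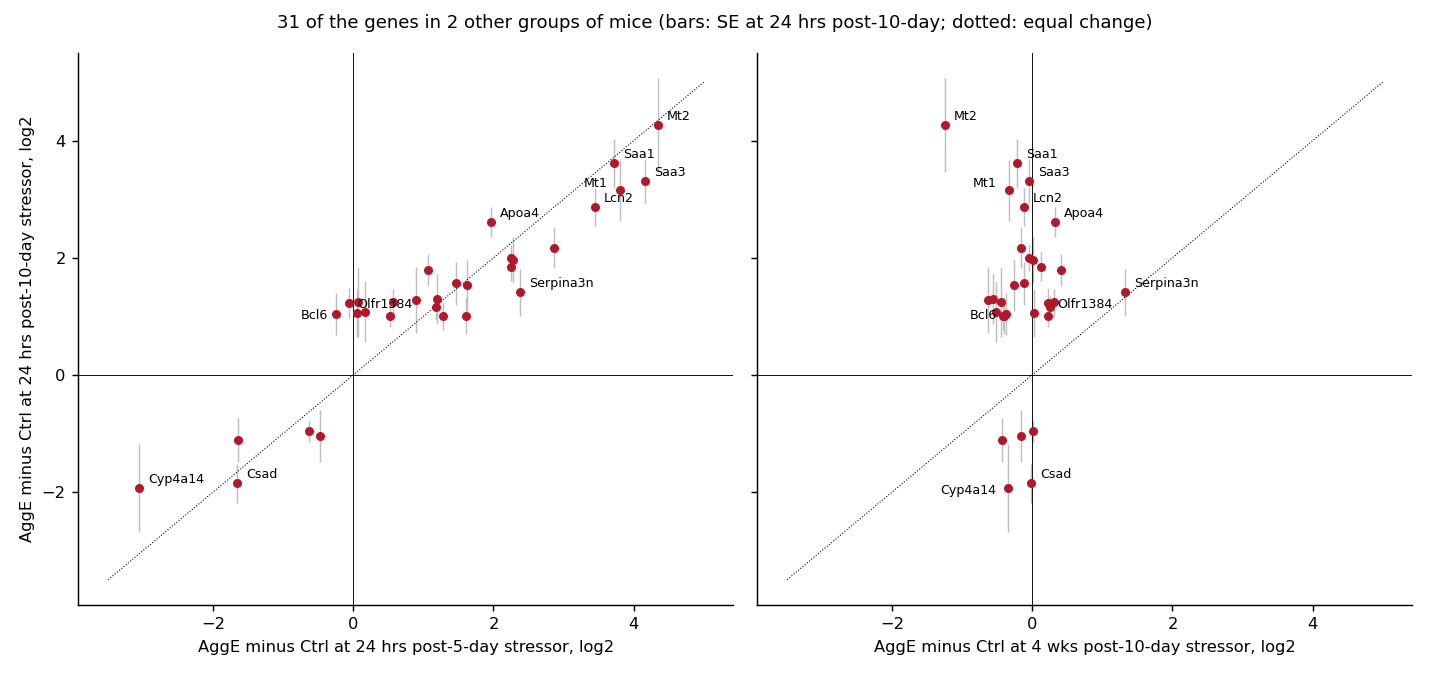
Changes of 31 genes called at 24 hrs post-10-day stressor (vertical axis, bars are SE) against their changes in separate mice, 24 hrs after the 5-day regimen (left) and 4 wks after the 10-day regimen (right), on the log2 scale. On the left 29 of 31 have the same sign and most lie near the line of equal change, and on the right the points gather near 0 on the horizontal axis, apart from Serpina3n at 1.32 and Mt2 at -1.24.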

How the data were processed

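Liver RNA (Cy-5) and a reference RNA (Cy-3) of 39 mice were hybridized to 1 dual dye array each. The authors deposited, median spot intensities with their local background medians for either dye, and processed intensities, from Feature Extraction (11.5.1.1 in the submitters' processing notes and the file headers, while the methods name an earlier release). The log10 ratios deposited for the series equal those in the array files within 0.6% and were used as an alternative, converted to log2 ratios. From the median intensities, normexp (offset 50), loess and quantile normalization were applied with limma 3.58.1 in R 4.3.3 (statmod 1.5.0). Control spots and outlier spots (0.344% to 1.46% on the 9 arrays) were left out, and repeated spots averaged per probe. The 25903 probes of RefSeq transcripts were tested, and 24375 of them matched a symbol in RefSeq's GRCm38.p6 annotation. The 39 arrays were fitted as 8 group means with empirical Bayes shrinkage, and p-values were adjusted by Benjamini-Hochberg over all 25903 probes.

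A gene was called through any of its probes, and a list counted its brightest probe on average. Named were all genes called at 2-fold, up to 10 rises and falls called at an adjusted p below 2-fold, and list members. The 36 gene lists, 11 marker lists, tests and named genes were chosen with earlier results of these data known. The procedure was tested on simulated data. The few arrays per group limit the precision. Samples are different mice by their labels, and same-numbered Ctrl and AggE mice are not paired (correlations of their deviations -0.21, 0.13, 0.05 and 0.05). Alternatives covered other background corrections, scalings, probes and fits, blocks by slide and by replicate number, and leaving out each of the 9 arrays. Normalizing and fitting the 9 arrays by themselves was added after seeing the data. Some genes that entered the counts are not reported here.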

Additional observations from a re-analysis of the deposited data

Results flagged for a closer look

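In groups of 4 Ctrl mice, some values stood apart from the rest by a gap too wide for Dixon's test, which chance gives in about 1 in 20 groups. These were C8g in Ctrl mouse 3, with a log2 ratio of 0.115, and Aldh8a1 in Ctrl mouse 3, with -0.133. Both spots had no signal in either channel and had not been marked as outliers.

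For 9 genes the change of the 10-day regimen at 24 hrs of rest was unlike that at 4 wks by the adjusted test of the difference. The log2 differences were 5.507 for Mt2, 3.831 for Saa1, 3.49 for Mt1, 3.359 for Saa3, 2.985 for Lcn2, 2.333 for Fgl1, 2.294 for Apoa4, 2.034 for Ifi27l2b and 1.732 for Apcs. These genes were chosen for their 24-hr changes, which enter the difference. All 9 were also below the adjusted limit at 24 hrs and none was at 4 wks.

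In the Cy-3 channel, which carried the reference RNA and enters no comparison by itself, the signal was higher in AggE than in Ctrl by 4.251 (log2) for Saa2 and by 1.463 for Saa1. At the other called Saa1 probe it was higher by 3.14. The cause was not tested.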

How the results depend on the processing

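The main counts were 31 genes at 2-fold and an unadjusted p, 16 at 2-fold and an adjusted p, 18 at an adjusted p, and 7 and 14 for the differences from the post-5-day and the 4 wks changes. At 2-fold and an unadjusted p there were 458 with the processed signals, 626 with the deposited log ratios and 49 without normalization between arrays or with Aquantile, which leaves the ratios as they are. At 2-fold and an adjusted p there were 7 with those latter 2 settings, 7 with only the groups compared, 6 with the slide as a random block and 6 with the 9 arrays only, and the same numbers stood at an adjusted p of any fold, where array weights gave 87. The difference from the post-5-day change was called in 1 gene without background correction, 18 with all probes, 195 with array weights and 0 with Cy-5 alone, the deposited log ratios, probes well above background, only the groups compared, the slide block, Aquantile or no normalization between arrays. The difference from the 4 wks change was called in 6 with the processed signals, 7 with the deposited log ratios, 5 with Aquantile or no normalization between arrays, 170 with array weights and 0 with the slide block. Leaving out 1 array gave 29 to 40, 12 to 18, 13 to 21, 0 to 11 and 6 to 17 for the 5 counts. The replicate block gave 35, 18, 22, 0 and 14. Without adjustment, limma called 1757 and 2185 genes for the 2 differences. The difference in the share of probes above background was 0.56 points with the other mark. Of the 33 genes, 28 had the same direction in every alternative run and 8 kept the 2-fold call at an unadjusted p, or the adjusted call where named under 2-fold, in all. Reversed were Orm2 (-0.082 with the processed signals, -0.0664 with the deposited log ratios), Saa2 (-0.695 and -0.0698), Serpina3n (-0.0839 with the processed signals), Cyp4a14 (0.01 with the deposited log ratios) and C8g (-0.0541 without Ctrl mouse 3, and up to 1.7787 without another array, Ctrl mouse 2). The causes were not tested, apart from the empty spot of C8g. Dim probes limit the rest, since 6324 of 18259 genes were not well above background on any array.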
